A study of Mus musculus with 8 samples.

Results

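The chemokine ligands Cxcl12, Cxcl1, Cxcl5, Ccl2, Ccl7, Ccl5 and Cx3cl1 and the CXCL12 receptors Cxcr4 and Ackr3 are described here, 9 of the 35976 genes in the deposited table. They were measured in 8 RNA-seq libraries from C2C12 cells, a mouse skeletal muscle myoblast line. In 4 libraries the cells carried an shRNA targeting Atad2, the gene of a bromodomain ATPase that binds chromatin, and in 4 they carried a non-targeting control shRNA. All cells were of the same line and were lysed 48 h after transfection, and the shRNA sequences were not used here. The genes were picked by symbol with their levels and group differences in these same libraries already known. Their differences between the groups are therefore given as descriptions, with no test.

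Chemokines are small secreted proteins that bind G protein-coupled receptors and direct cell migration. CXCL12 acts through CXCR4, which couples to inhibitory G proteins, and it also binds ACKR3, an atypical receptor that takes CXCL12 up for degradation and signals through arrestins. In skeletal muscle the CXCL12 and CXCR4 pair is known for guiding migrating muscle progenitors, and ligands such as CCL2 are known for drawing monocytes into injured muscle.

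In the Atad2 shRNA libraries Cxcl12 stood at 13.9% of its control level, while Cxcr4 overlapped the controls and Ackr3 was 1.60-fold higher. The neutrophil-attracting ligands Cxcl1 and Cxcl5 stood at 39.7% and 36.4% of their control levels. The other ligands lay at or above the controls: Ccl2 overlapped them, Ccl7 was 1.49-fold and Cx3cl1 2.33-fold higher, and Ccl5 had reads only in the Atad2 shRNA libraries.

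Promoter windows were found for 5 of the 9 genes, Cxcl12, Cxcr4, Ackr3, Cxcl1 and Cx3cl1, in a RefSeq table on GRCm38.p6 that covers 250 bases before and 50 bases after each annotated start. Ccl2, Ccl7, Ccl5 and Cxcl5 were the members with no window. The 3 windows below belong to the ligands among these 5 genes, Cxcl12 and Cxcl1 (lower) and Cx3cl1 (higher), and all lie on the plus strand. Capitals mark matches on either strand to 3 motifs. The kB core, the kind of site that NF-kB binds, was searched as GGAATTTCC. The sequence searched for the TATA box was TATAAA. For the GC box, which Sp1 binds, the searched sequence was GGGCGG.
Cxcl12, chr6:117168285-117168584: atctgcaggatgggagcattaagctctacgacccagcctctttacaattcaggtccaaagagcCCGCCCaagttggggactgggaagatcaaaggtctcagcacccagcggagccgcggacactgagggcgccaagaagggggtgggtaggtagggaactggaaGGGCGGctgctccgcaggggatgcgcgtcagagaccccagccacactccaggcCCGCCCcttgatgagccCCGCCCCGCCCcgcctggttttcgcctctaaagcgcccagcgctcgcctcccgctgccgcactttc
Cxcl1, chr5:90890995-90891294: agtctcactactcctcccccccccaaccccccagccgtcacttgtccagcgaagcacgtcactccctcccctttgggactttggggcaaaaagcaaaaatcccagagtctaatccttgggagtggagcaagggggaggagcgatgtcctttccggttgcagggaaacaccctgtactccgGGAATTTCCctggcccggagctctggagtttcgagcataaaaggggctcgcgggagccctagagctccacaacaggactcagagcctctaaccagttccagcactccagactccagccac
Cx3cl1, chr8:94771930-94772229: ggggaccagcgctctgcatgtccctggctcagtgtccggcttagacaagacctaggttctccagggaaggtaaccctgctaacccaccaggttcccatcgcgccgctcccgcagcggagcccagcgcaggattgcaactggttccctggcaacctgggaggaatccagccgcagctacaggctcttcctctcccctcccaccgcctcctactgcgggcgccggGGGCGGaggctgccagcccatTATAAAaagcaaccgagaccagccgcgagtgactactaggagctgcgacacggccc
The Cxcl12 window held 5 GC boxes, of which the pair nearest the start share a base, and none of the other motifs. The Cxcl1 window held a kB core that begins 70 bases before the start. The Cx3cl1 window held a GC box and a TATAAA match that begins 6 bases before the start.

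Of 32851 RefSeq windows of the same length, 0.317% held the kB core, 13.6% the TATA box and 35.7% the GC box on either strand. Among the other 2 members with a window, Cxcr4 held 3 GC boxes and a TATAAA match on each strand. These 2 TATAAA matches overlap and begin 32 and 30 bases before the start. Ackr3 held 1 GC box and 1 TATAAA match, which begins 8 bases before the start. The kB core was also present in the windows of Cxcl2 and Cxcl3, neighbours of Cxcl1 that encode CXC ligands of the same kind. The 100 bases around that match are given because they can be read beside the Cxcl1 window, with the same capitals.
Cxcl2, chr5:90903799-90903898: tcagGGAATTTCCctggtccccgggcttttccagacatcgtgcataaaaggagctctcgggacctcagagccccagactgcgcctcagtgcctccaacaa
Cxcl3, chr5:90786001-90786100: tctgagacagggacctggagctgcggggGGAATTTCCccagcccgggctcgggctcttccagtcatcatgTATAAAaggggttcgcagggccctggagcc
Cxcl2 was listed at 0 in all 8 libraries, and Cxcl3 had 0 reads in every Atad2 shRNA library and 0 to 5 reads in the control libraries. The 3 windows thus held the same 9 letters next to genes of very different read numbers in these cells.

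The deposited values are log2(x + 1) of read counts that the authors divided by a size factor per library. Differences below are Atad2 shRNA minus control on that scale, which understates the change of weakly read genes. Depths, from recovered reads, were 50317442 to 72280135 reads per Atad2 shRNA library and 61359197 to 73008500 reads per control library (exact two-sided permutation p = 0.457). Atad2 itself, at 15.1% of its control level, was lower in every Atad2 shRNA library (11.77 to 12.05) than in every control library (14.61 to 14.74), a log2 difference of -2.73 ± 0.05 (SE, limma adjusted p = 4.58e-20). Of 14703 genes with a mean above 3, 30.8% were higher and 29.6% lower, 60.4% in all (limma, Benjamini-Hochberg adjusted p under 0.05), with a median difference of -0.01. The values of the groups did not overlap for 53.5% of these genes, 27.7% higher and 25.8% lower in the Atad2 shRNA libraries. Whether the libraries of each group were grown as separate cultures is not stated in the labels, so p-values measure the spread between these libraries, which may be technical.

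Desmin (Des) and Myod1, which mark myoblasts, averaged 15.12 ± 0.06 and 12.86 ± 0.06 on the log2 scale in the Atad2 shRNA libraries, against 14.74 ± 0.05 and 12.61 ± 0.06 in the controls (SD, n = 4 each). Both genes were strongly read in every library, as the label of a myoblast line implies. All 8 myoblast markers listed were tested, 4 higher and 4 lower (limma; 30.8% and 29.6% of all genes). Without Pax7, which passed the filter through the control libraries alone, 3 were lower. The summed level of the list was 885 to 975 RPM (reads per library of 1000000) in the Atad2 shRNA libraries and 811 to 860 RPM in the controls. RPM values here and below divide by total reads and not by the size factor. The satellite cell gene Pax7 had 0 to 12 reads in the Atad2 shRNA libraries and 19 to 41 in the controls. In such bulk libraries, fewer cells that make a transcript and less transcript per cell cannot be told apart.

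All 9 genes passed the filter on the mean, Ccl5 through the Atad2 shRNA libraries alone. For 7 of the 9 the values of the groups did not overlap, 4 higher (Ackr3, Ccl7, Ccl5 and Cx3cl1) and 3 lower (Cxcl12, Cxcl1 and Cxcl5) in the Atad2 shRNA libraries, beside 53.5%, 27.7% and 25.8% of all genes tested. These counts follow from how the genes were picked.

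**Figure D1:**
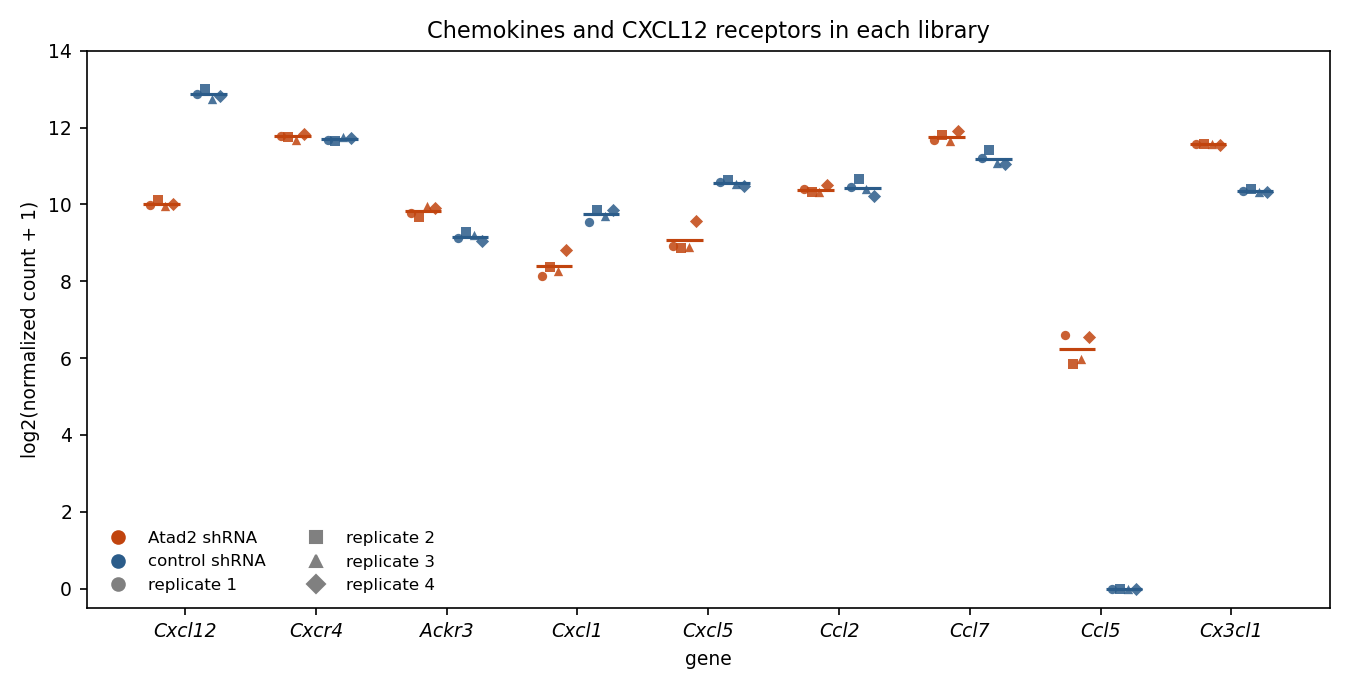
Deposited log2(x + 1) value of each of the 9 genes in each library, with the Atad2 shRNA libraries (orange) left of the control shRNA libraries (blue) for each gene. Point shapes mark replicates and lines are group means. Cxcl12, Cxcl1 and Cxcl5 are separated with the controls above, Ackr3, Ccl7, Ccl5 and Cx3cl1 with the controls below, and Cxcr4 and Ccl2 overlap.

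Cxcl12 (chromosome 6, 117168535 to 117181367, plus strand, GRCm38) encodes the ligand CXCL12. It had log2 values of 9.97, 10.12, 9.97 and 10.01 in the Atad2 shRNA libraries, against 12.89, 13.01, 12.75 and 12.81 in the control libraries. Every Atad2 shRNA library lay far below every control library, with a narrow spread inside each group. The difference was -2.85 ± 0.05 (SE, n = 4 each), and the control level was 7.21-fold that of the Atad2 shRNA libraries. In reads this was 778 to 1160 per Atad2 shRNA library and 7438 to 8478 per control library, so that read depth does not limit the comparison. Among all genes tested, 104 had a more negative difference than Cxcl12.

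Cxcr4 (chromosome 1, 128588199 to 128592293, minus strand), the receptor through which CXCL12 signals in migrating cells, had log2 values of 11.78, 11.76, 11.69 and 11.85 in the Atad2 shRNA libraries, against 11.68, 11.64, 11.76 and 11.73 in the control libraries. The groups overlapped, and the spread inside each was about as wide as the difference of 0.07 ± 0.04 (SE). Its reads ran from 2567 to 3860 per Atad2 shRNA library and from 3170 to 4012 per control library.

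Ackr3 (chromosome 1, 90203980 to 90216751, plus strand), the atypical receptor that removes CXCL12, had log2 values of 9.77, 9.67, 9.96 and 9.92 in the Atad2 shRNA libraries, against 9.12, 9.27, 9.21 and 9.04 in the control libraries. All Atad2 shRNA libraries lay above all control libraries, by 0.67 ± 0.08 (SE) between the means. With the ligand lower, the signalling receptor overlapping and the scavenging receptor higher, the 3 genes of the CXCL12 axis each stood differently against the controls.

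The pattern of these 3 genes over the 8 libraries was set beside that of 11610 genes with a mean of at least 5. The Pearson correlation on the log2 scale is given as a description, since the 8 points fall into the same 2 groups for every gene and share their library depths. Nearest to Cxcl12 were Amotl2 (r = 0.9991), Nacc2 (0.999) and Tmsb4x (0.9989), and 179 genes had a correlation over 0.99 with it. Nearest to Ackr3 were Nr2f1 (0.998), Akap11 (0.9951) and Donson (0.9939), with 5 genes over 0.99. Among the genes nearest to Cxcr4 were Arl13b (0.9561) and Aplf (0.954), and no gene was over 0.99.

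Cxcl1 and Cxcl5 encode CXC ligands that attract neutrophils through the receptor CXCR2. Cxcl1 (chromosome 5, 90891241 to 90893115, plus strand), whose promoter window with the kB core is printed above, had log2 values of 8.14, 8.37, 8.26 and 8.81 in the Atad2 shRNA libraries, against 9.54, 9.87, 9.71 and 9.85 in the control libraries. No value overlapped, and the Atad2 shRNA library of replicate 4 came nearest to the controls. The difference was -1.35 ± 0.12 (SE), with 237 to 386 reads per Atad2 shRNA library and 793 to 1083 per control library.

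Cxcl5 (chromosome 5, 90759360 to 90761624, plus strand) had log2 values of 8.91, 8.87, 8.90 and 9.58 in the Atad2 shRNA libraries, against 10.58, 10.63, 10.53 and 10.48 in the control libraries. The groups did not overlap, but replicate 4 of the Atad2 shRNA libraries stood well above the other 3. The difference was -1.49 ± 0.11 (SE) with that library and -1.66 without it. Cxcr2, the receptor gene for both ligands, had 0 to 5 reads per Atad2 shRNA library and 0 to 4 per control library, too few to be tested.

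Ccl2 and Ccl7 encode CC ligands that attract monocytes through CCR2, and they lie 10.1 kb apart. Ccl2 (chromosome 11, 82035571 to 82037453, plus strand) had log2 values of 10.40, 10.33, 10.31 and 10.50 in the Atad2 shRNA libraries, against 10.44, 10.66, 10.40 and 10.23 in the control libraries. The control libraries spanned the whole range of the Atad2 shRNA libraries, and the difference was -0.045 ± 0.074 (SE).

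Ccl7 (chromosome 11, 82045712 to 82047525, plus strand) had log2 values of 11.68, 11.80, 11.65 and 11.91 in the Atad2 shRNA libraries, against 11.20, 11.41, 11.08 and 11.06 in the control libraries. All Atad2 shRNA libraries were above all controls, by 0.57 ± 0.07 (SE) between the means. Ccr2, which encodes a receptor that both ligands share, was listed at 0 in all 8 libraries.

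Ccl5 (chromosome 11, 83525778 to 83530518, minus strand) encodes a CC ligand of T cells and monocytes that binds CCR1 and CCR3, among others. It had 105, 59, 48 and 80 reads in the Atad2 shRNA libraries, against 0 in each of the 4 control libraries. No fold can be fitted against 0. Against a floor of 3 reads per control library, 2.79 normalised counts on average, the Atad2 shRNA mean of 76.6 ± 20.4 normalised counts (SD, n = 4) was at least 27.5-fold higher. The floor covers counting error only. Of all genes, 8, Ccl5 among them, had 0 reads in every control library and more than 3 in every Atad2 shRNA library.

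Cx3cl1 (chromosome 8, 94772009 to 94782427, plus strand) encodes fractalkine, a ligand made as a membrane-anchored protein that ADAM10 and ADAM17 cut free. It had log2 values of 11.58, 11.57, 11.56 and 11.55 in the Atad2 shRNA libraries, against 10.35, 10.39, 10.31 and 10.31 in the control libraries. Both groups were tight, and they stood well apart. The difference was 1.22 ± 0.045 (SE), with 2350 to 3344 reads per Atad2 shRNA library and 1333 to 1498 per control library.

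**Figure D2:**
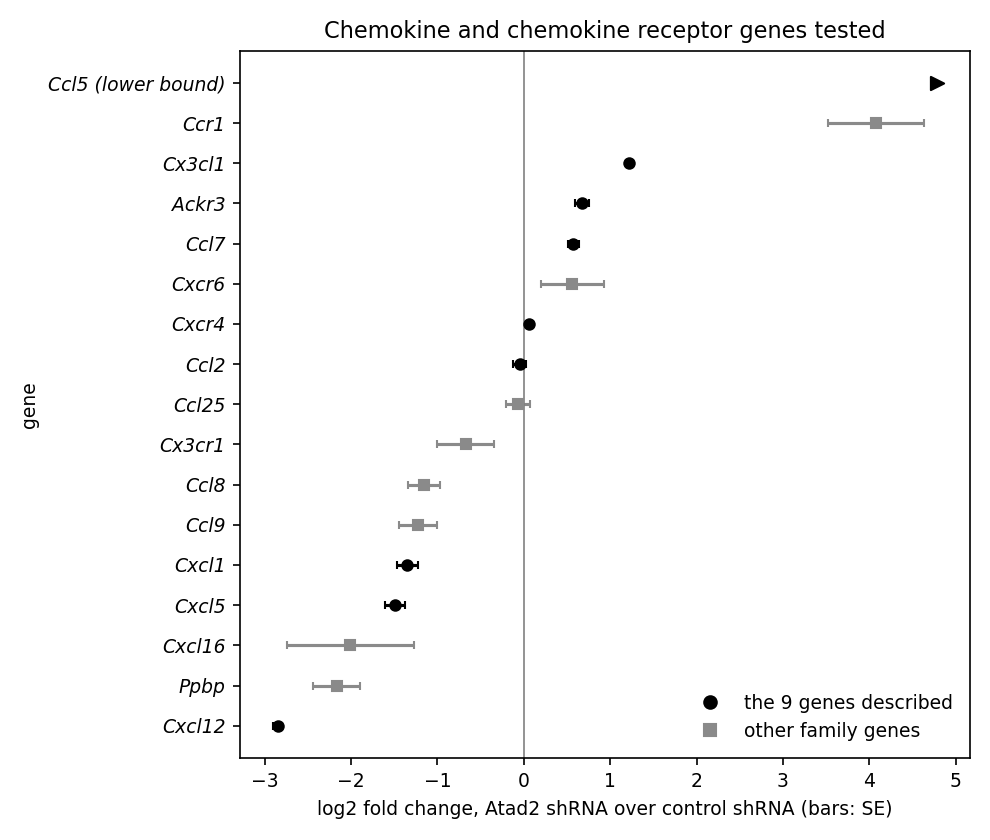
Log2 difference, Atad2 shRNA minus control shRNA, with its standard error, for the 9 genes (black) and for the other chemokine ligand and receptor genes that were tested (grey). Ccl5 is drawn at the lower bound given by the floor of 3 reads. Cxcl12 has the most negative difference of the 9 genes (-2.85). The ligand genes drawn in grey all lie below 0, with Ccl25, which did not pass the threshold, at -0.07. Ccr1 and Cxcl16 passed the filter on the mean through 1 group alone.

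Levels were compared between genes per length, as reads per kilobase of exon in a library scaled to 1000000 reads (RPKM), with exon lengths from GENCODE M21, which may not be the authors' annotation. RPKM divides by total reads and the log2 differences use the size factor, so group ratios on the 2 scales need not match. Cxcr4 was thus slightly lower in RPKM in the Atad2 shRNA libraries, beside a log2 difference of 0.07. In the Atad2 shRNA libraries Ccl7 stood highest, at 66.6 ± 5.97 RPKM, followed by Cxcr4 (29.6 ± 1.39), Ccl2 (18.0 ± 1.17) and Cx3cl1 (11.8 ± 0.05) (SD, n = 4). Next came Cxcl5 (4.51 ± 1.23) and Ackr3 (4.19 ± 0.42), whose ranges overlapped, then Cxcl1 (2.79 ± 0.63), Cxcl12 (1.95 ± 0.09) and Ccl5 (1.23 ± 0.33). The top of the order was the same in the control libraries, with Ccl7 at 47.3 ± 5.45, Cxcr4 at 29.9 ± 1.21 and Ccl2 at 19.7 ± 2.45 RPKM.

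The middle of the order was not. In the control libraries the next levels were those of Cxcl12 (14.8 ± 1.12 RPKM) and Cxcl5 (13.1 ± 0.61), whose ranges overlapped, then Cxcl1 (7.41 ± 0.75), Cx3cl1 (5.34 ± 0.13) and Ackr3 (2.76 ± 0.20), with Ccl5 at 0. Cxcl12 thus stood at place 8 of the 9 genes in the Atad2 shRNA libraries and at place 4 in the controls, and Cx3cl1 at place 4 in the Atad2 shRNA libraries and place 7 in the controls.

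**Figure D3:**
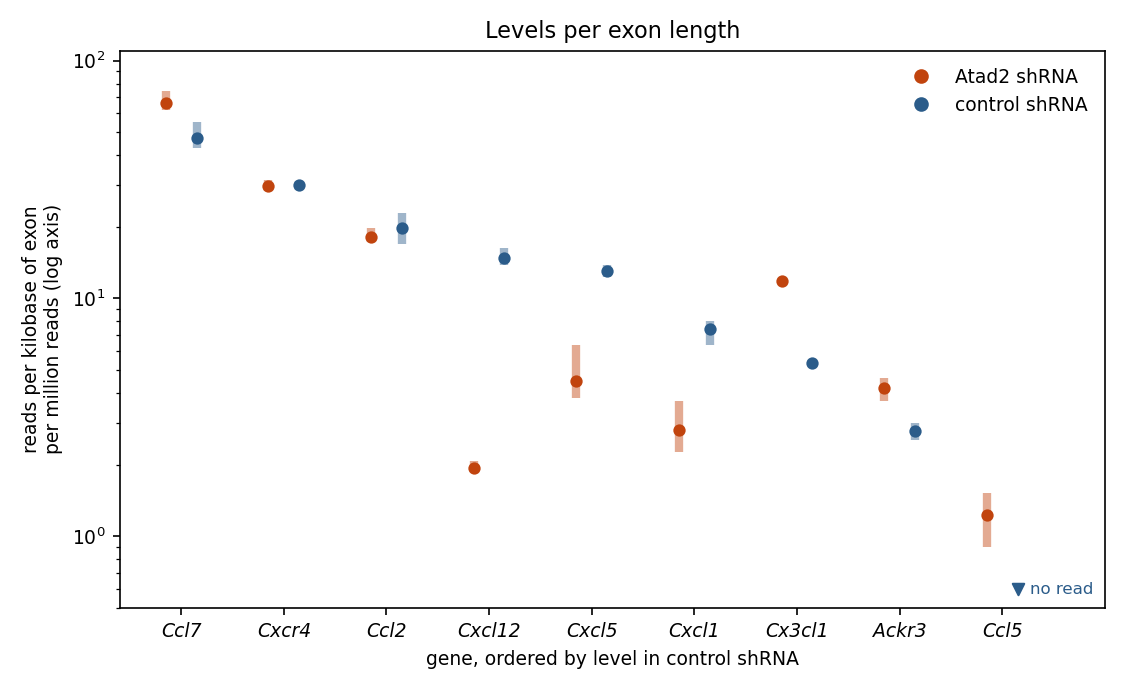
Level per length in RPKM, on a log axis, of the 9 genes in the Atad2 shRNA (orange) and control shRNA (blue) libraries, with points at group means and bars from the lowest to the highest library. Ccl7, Cxcr4 and Ccl2 are highest in both groups, and Cxcl12 lies at 1.95 RPKM in the Atad2 shRNA libraries against 14.8 RPKM in the controls.

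Of the other 33 chemokine ligand genes, 15 had no read in any library and 5 passed the filter. None of these 5 was higher and 4 were lower in the Atad2 shRNA libraries (limma), beside 30.8% and 29.6% of all genes tested, with a median difference of -1.22 beside -0.01. One of the 4, Cxcl16, passed the filter through the control libraries alone, which leaves 3 lower of 4. The count higher was 0 also at an unadjusted p under 0.05 and with voom. Ppbp, a platelet chemokine gene of the CXC cluster, had 21, 27, 13 and 17 reads in the Atad2 shRNA libraries and 100, 113, 100 and 91 in the controls (difference -2.16 ± 0.27, limma adjusted p = 8.07e-07). Ccl9 (41 to 52 reads against 114 to 155 in the controls) and Ccl8 (61 to 118 reads against 195 to 254), other CC ligand genes, fell by 1.22 ± 0.22 and 1.16 ± 0.19 on the log2 scale (limma adjusted p = 8.12e-05 and 1.71e-05).

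Cxcl16 encodes the membrane-anchored ligand of CXCR6. It had 6, 0, 24 and 7 reads in the Atad2 shRNA libraries and 24, 15, 47 and 33 in the controls, which overlap. The call of Cxcl16 supports no direction, since the gene was tested through its control libraries alone. Its difference of -2.01 on the log2 scale was -1.10 without Atad2 shRNA replicate 2, where the call was lost, and -2.77 without Atad2 shRNA replicate 3. The call was also lost without control replicate 3 or control replicate 4. Ccl25, a ligand known from gut and thymus, did not pass the test (difference -0.07 ± 0.14, limma adjusted p = 0.692).

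The CXC ligand genes of chromosome 5 lie close together. Cxcl5 and Ppbp, whose starts are 132 kb and 123 kb before that of Cxcl1, were lower in the Atad2 shRNA libraries, as was Cxcl1. Between and beside them Pf4, Cxcl3 and Cxcl15 had at most 5 reads in any library, and Cxcl2, 12.6 kb beyond Cxcl1, had none. Genes of the CC cluster with Ccl2 did not share 1 direction: Ccl2 overlapped the controls, Ccl7 was higher, Ccl8, 79.6 kb from Ccl2, was lower, and Ccl11 had 2 to 11 reads in the Atad2 shRNA libraries and 2 to 17 in the controls. Ccl9, 48.1 kb from Ccl5, was lower where Ccl5 was higher, and Ccl3, Ccl4 and Ccl6 beside them had at most 4 reads.

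**Figure D4:**
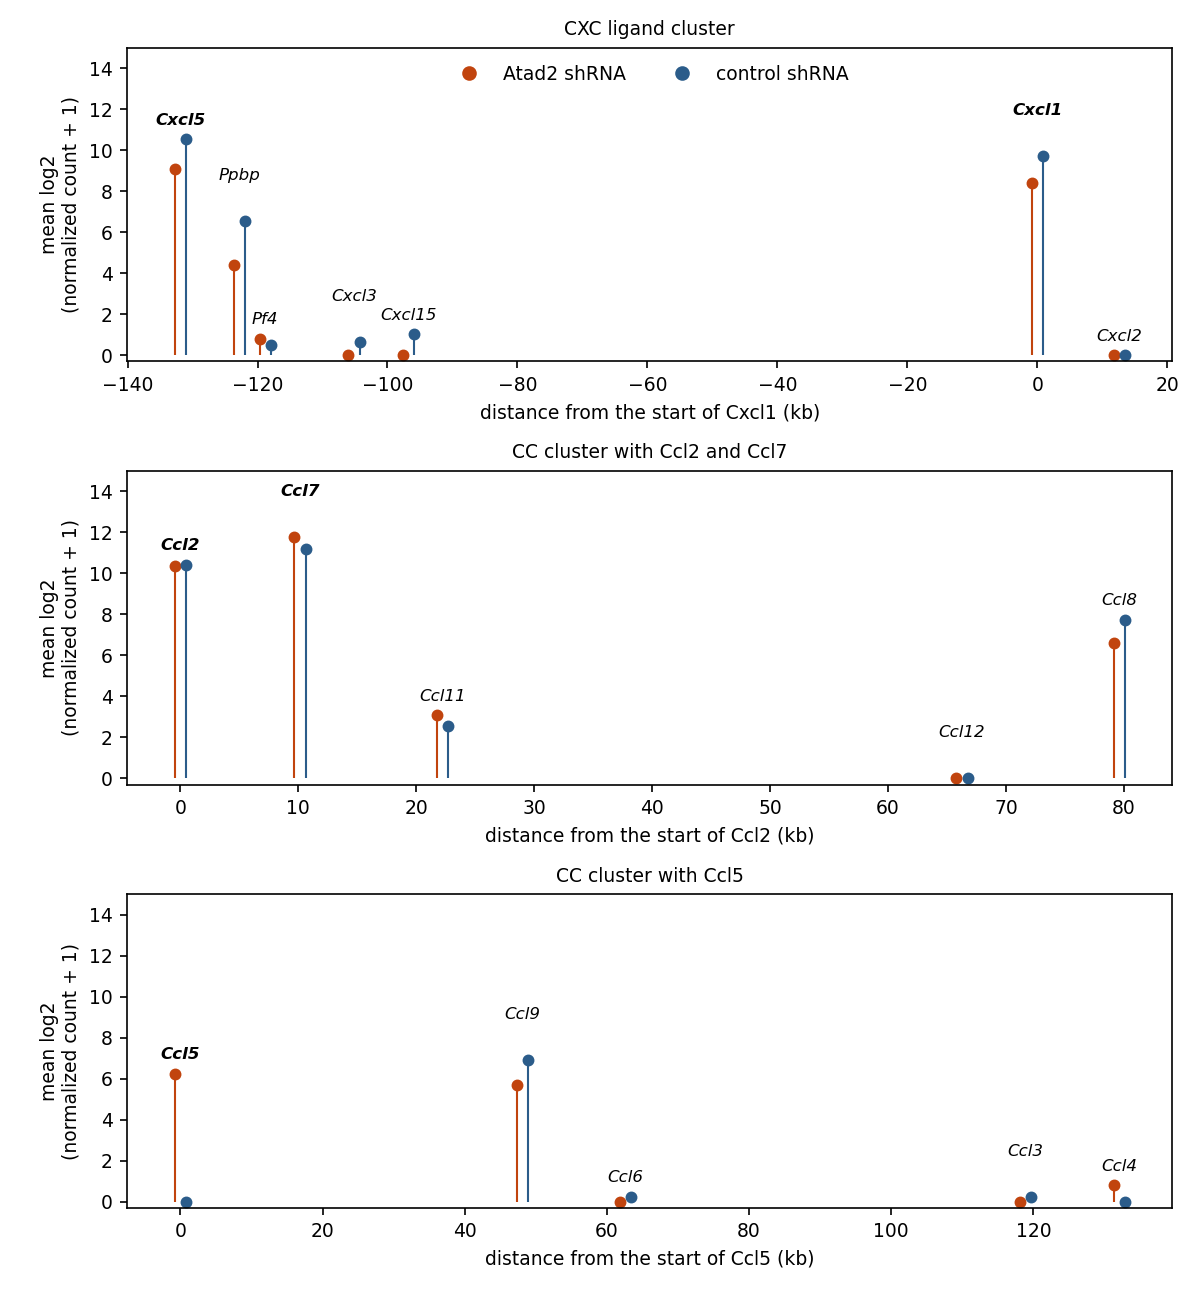
Mean log2(x + 1) level of the chemokine genes in 3 genomic clusters, placed by the distance in kb of each gene's start from that of Cxcl1, Ccl2 or Ccl5, in Atad2 shRNA and control shRNA libraries. Stems run from 0 to the mean, genes described here are in bold, and Ccl1, with no read in any library, lies outside the span drawn. Cxcl5, Ppbp and Cxcl1 lie below the controls, while Ccl7 lies above and Ccl8 below in the cluster with Ccl2.

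Most receptors of these ligands had few reads. Of the other 22 chemokine receptor genes, 9 had no read in any library and 3 passed the filter. Of these 3 genes 1, Ccr1, was higher and 0 were lower (limma), beside 30.8% and 29.6% of all genes. The count lower was 0 also at an unadjusted p under 0.05 and with voom. Ccr1, a receptor for CCL5 and CCL7, had 125, 51, 45 and 67 reads in the Atad2 shRNA libraries and 12, 1, 1 and 7 in the controls. All Atad2 shRNA libraries lay above all controls, but Ccr1 passed the filter through the Atad2 shRNA libraries alone, so its values are a description. Of the other 2 receptors tested, 0 passed the threshold. Ccr3, also a receptor gene for CCL5, had 3 to 14 reads in the Atad2 shRNA libraries, against 0 to 10 in the controls, and was under the filter.

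Cx3cr1, the receptor gene for CX3CL1, had 20, 29, 14 and 18 reads in the Atad2 shRNA libraries and 35, 35, 44 and 33 in the controls. The groups did not overlap, but the difference of -0.67 ± 0.33 missed the threshold (limma adjusted p = 0.088). Cxcr6, the receptor gene for CXCL16, had 87, 93, 23 and 24 reads in the Atad2 shRNA libraries and 26, 33, 37 and 50 in the controls, and overlapped (difference 0.56 ± 0.37, limma adjusted p = 0.196). Ackr4, an atypical receptor gene, had 0, 1, 0 and 0 reads in the Atad2 shRNA libraries and 14, 7, 6 and 8 in the controls, under the filter.

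Among 40 tested of 46 genes for signalling below chemokine receptors, 9 were higher and 14 lower (limma), beside 30.8% and 29.6% of all genes. The median difference was -0.03. With quantile normalization 9 were higher and 20 lower. Ptk2b, an adhesion kinase activated by chemokines, fell by 2.15 ± 0.17 on the log2 scale, and Jak2 and the PI3-kinase subunit genes Pik3r5 and Pik3cb fell by 0.67 ± 0.04, 0.87 ± 0.26 and 0.58 ± 0.07. The call of Pik3r5 was lost with quantile normalization (limma adjusted p = 0.161; 0.00164 to 0.161 over all alternatives). RGS genes, whose proteins shorten G protein signals, went both ways: Rgs4 and Rgs3 rose by 1.72 ± 0.16 and 0.47 ± 0.06, and Rgs16, with 3 to 14 reads in the Atad2 shRNA libraries and 50 to 75 in the controls, fell by 2.66 ± 0.43 (limma adjusted p = 2.03e-05). The inhibitory G protein gene Gnai2 and the arrestin gene Arrb1 averaged 14.44 ± 0.03 and 11.21 ± 0.03 on the log2 scale in the Atad2 shRNA libraries, against 14.70 ± 0.04 and 11.60 ± 0.06 in the controls. The related genes Gnai1, Gnai3 and Arrb2 of the same list did not pass the threshold. Their differences were 0.10, 0.08 and 0.12 (limma adjusted p = 0.149, 0.055 and 0.107). Rgs16 and all these G protein and arrestin genes were named after their values were seen.

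For genes that cut chemokines or hold them on the cell surface, 29 of 35 were tested, with 17 higher, 8 lower (30.8% and 29.6% of all genes) and a median difference of 0.21. The syndecan genes Sdc3 and Sdc1 rose by 1.27 ± 0.03 and 0.79 ± 0.04, and the protease inhibitor gene Timp1 by 0.88 ± 0.04. Adam17, which encodes a sheddase of CX3CL1, rose by 0.44 ± 0.03. Hs3st1, a heparan sulfate sulfotransferase gene, had 2 to 10 reads per Atad2 shRNA library and 105 to 171 per control library. It passed the filter through the control libraries alone, and 7 genes were lower without it. Mmp2, a matrix protease that can cut CXCL12, fell by 2.11 ± 0.13.

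Of 40 NF-kB factors and regulators 38 were tested, with 14 higher, 13 lower (30.8% and 29.6% of all genes) and a median difference of 0.08. Ikbkg, the regulatory subunit of the IkB kinase, rose by 1.15 ± 0.03, Relb by 0.89 ± 0.09, and the inhibitor genes Nfkbia and Nfkbie by 0.69 ± 0.04 and 0.47 ± 0.12. Tnfaip3, an inhibitor of the pathway, fell by 0.80 ± 0.10 and Nfkbiz, a nuclear IkB protein gene, by 0.78 ± 0.06. The motif in the Cxcl1 window printed above stands beside these values as a description, since binding was not measured.

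In the list of inflammatory cytokines, their receptors and adhesion genes, 32 of 44 were tested, with 15 higher, 10 lower (30.8% and 29.6% of all genes) and a median difference of 0.17. The adhesion gene Selp rose by 2.00 ± 0.07, the prostaglandin synthase gene Ptgs2 by 1.03 ± 0.07, and the cytokine genes Il34 and Il33 by 0.76 ± 0.10 and 0.42 ± 0.07. Ptx3, a soluble pattern recognition gene, fell by 1.92 ± 0.21 and Osmr, the oncostatin M receptor gene, by 1.75 ± 0.09. In all 4 lists the genes given with a rise or fall had limma adjusted p-values of at most 0.00612.

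**Figure D5:**
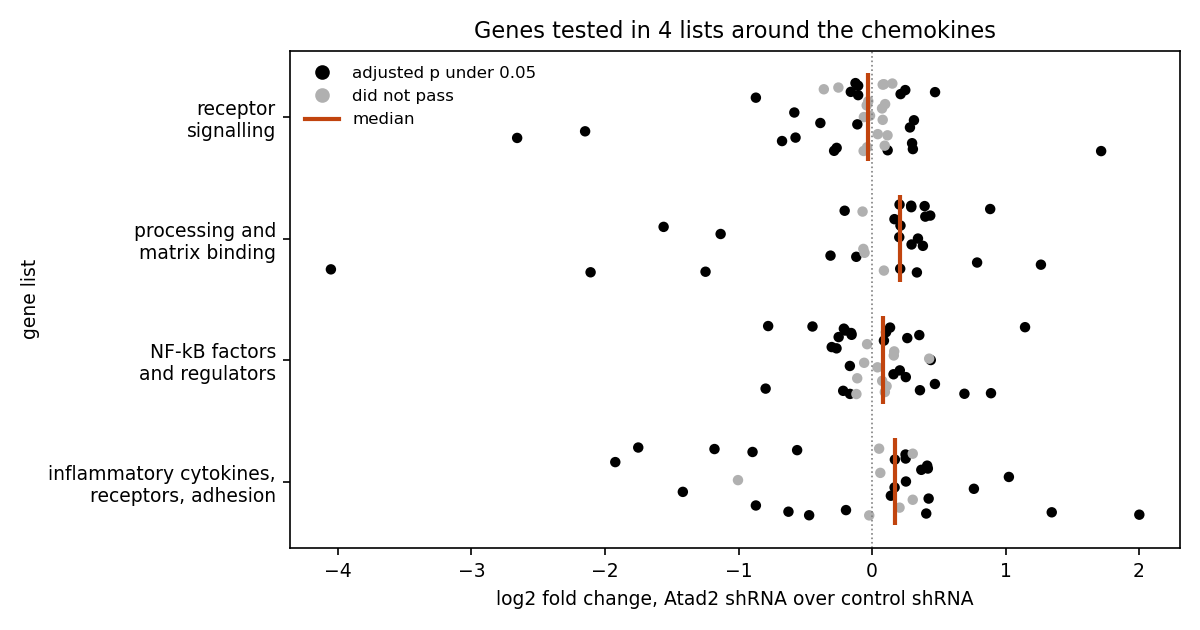
Log2 difference, Atad2 shRNA minus control shRNA, of every tested gene in 4 lists around the chemokines, 1 row per list, with black points for genes past the threshold and the list's median as a bar. In each list genes lie on both sides of 0, with medians from -0.03 to 0.21.

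Markers of leukocytes, which answer these ligands, were set beside the values. In the macrophage list of 12 genes 9 had reads. Adgre1, C1qa and Tyrobp were at 0 in all libraries and Ptprc had 0 to 4 reads in each group. The summed level of the list was 17.0 to 20.4 RPM in the Atad2 shRNA libraries and 15.1 to 15.9 in the controls. The 4 genes tested had a median difference of 0.61, beside -0.01 for all genes. Of 4 genes tested 1, Cd68, was higher (1.17 ± 0.11, limma adjusted p = 1.40e-08) and 0 were lower, beside 30.8% and 29.6% of all genes. The part of Cd68 in the values of Ccl5 and Ccr1 was not tested. Of the neutrophil and lymphocyte lists, 8 genes each, none passed the filter, and the defining genes Csf3r, Mpo, Cd3e and Ms4a1 were at 0. Their sums were 0.04 to 0.16 and 0.01 to 0.07 RPM in the Atad2 shRNA libraries, against 0.01 to 0.12 and 0 to 0.15 in the controls.

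The endothelial list summed to 0.44 to 0.77 RPM in the Atad2 shRNA libraries and 0.73 to 1.01 in the controls, with Tie1, Emcn and Cldn5 at 0. Of 3 genes tested 0 passed the threshold, beside 60.4% of all genes (limma; 0 also at an unadjusted p under 0.05 and with voom). Vwf, 1 of the 3, passed the filter through 1 group alone. The fibroblast list summed to 904 to 1244 RPM in the Atad2 shRNA libraries and 1252 to 1390 in the controls. Of its 8 genes 6 had reads, with Lum and Thy1 at 0. In the controls its sum lay above that of the myoblast list (811 to 860 RPM). In the Atad2 shRNA libraries the sums of the 2 lists overlapped (885 to 975 RPM for the myoblast list). Of 5 genes tested, 3 were higher and 2 lower (limma; 30.8% and 29.6% of all genes), with a median difference of 0.67. The sum and the median of this list thus went opposite ways. The part of the fibroblast genes in the values of Cxcl12 was not tested.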

How the data were processed

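RNA from C2C12 cells 48 h after transfection was sequenced in 8 libraries, 4 per group, grouped by the labels. The submitters' processing notes name HTSeq 0.13.5, DESeq2, SAMtools 1.1, bcl2fastq 2.20 and the build mm10. Sources used here do not name an aligner, an annotation or whether counting used strand, so reads from a gene and an overlapping antisense partner cannot be told apart, and reads of near-identical copies may be split. The values the authors deposited are log2(x + 1) of size-factor normalized counts, with 3 decimals. The values themselves show this form, since low ones of every library lay on whole multiples of 1 step, within 0.1 of a read. Reads recovered with that step gave depths, read ranges and floors of 3 reads. No column was left unused.

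Genes with a mean log2 value above 3 were tested with limma 3.58.1 (R 4.3.3, empirical Bayes with a variance trend, Benjamini-Hochberg over all 14703 genes). The pipeline was also run on simulated data, which held far fewer changed genes than these libraries and the same dispersion for every gene. That run therefore cannot show how well the calls here are calibrated. Depth was compared by an exact permutation test. Levels per length used GENCODE M21 exons, and 26763 symbols matched. Promoters and motifs were read from RefSeq windows with Python 3.11.15.

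The members, the gene lists and the rule for named genes were chosen with earlier results of these data known. The rule named all members, Atad2, every tested gene of the lists of other chemokine ligands and receptors, the annotated chemokine genes of the clusters, and the 3 genes most like Cxcl12, Cxcr4 and Ackr3. From each other list it named, among genes past the threshold with no overlap and a mean of 5 or more, the 4 of largest absolute difference in the more frequent direction and the 2 in the other. Markers and weakly read receptors are named beside them, and some genes that the rule names are not reported here. Alternatives were the filter on low values, the offset, the scaling, the variance trend, voom on recovered reads, a replicate block and leaving out each library.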

Additional observations from a re-analysis of the deposited data

Results flagged for a closer look

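In 84 groups of 4 libraries, the highest or lowest value was set against the other 3, and 7 stood further apart than Dixon's critical value allows. Chance flags about 1 in 20 groups. In the Atad2 shRNA library of replicate 4, Cxcl5 was 9.58 on the log2 scale, against 8.87 to 8.91 in the other 3, which is nearer to the controls. In the same library Ptx3 was 7.09 against 6.06 to 6.18, Osmr 10.53 against 9.94 to 10.002, Nfkbie 8.63 against 8.94 to 8.98 and Selp 14.05 against 14.34 to 14.39, each again on the side of the controls. The other 2 values came from control libraries: Rgs4 was 6.67 in replicate 3, against 7.04 to 7.10 in the other controls, and Osmr was 11.70 in replicate 4, against 11.90 to 11.93. Over all genes tested, the Atad2 shRNA library of replicate 4 was the outlying high value for 0.952% and the outlying low value for 1.16% of genes, against 0.401% to 0.857% in the other 7 libraries. Without that library the difference of Cxcl5 was -1.66, beside -1.49 with it.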

How the results depend on the processing

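Under 16 alternatives, 353 values for counts and members stayed within the limits set for a change and 7 did not. Some counts inside those limits still moved. The count of signalling genes lower, 14 as reported, was 20 with quantile normalization. The count of signalling genes higher, 9 as reported, was 13 without Atad2 shRNA replicate 4. For processing and matrix binding the count lower, 8 as reported, was 11 with quantile normalization. Outside the limits, the difference of Cxcr4 was 0 and that of Cx3cl1 1.19 with quantile normalization. The count of other chemokine receptors higher in the Atad2 shRNA libraries, 1 as reported, was 2 with no filter on low values, 0 for genes with a mean above 5, where Ccr1 is no longer tested, and 2 with quantile normalization. The count lower, 0 as reported, was 1 with no filter and 1 without the variance trend. Among named genes 7 calls were lost, 6 of them for Cxcl16 and 1 for Pik3r5 (-0.41 with quantile normalization, limma adjusted p = 0.161). Cxcr6 passed with quantile normalization (1.05, limma adjusted p = 0.0241) and Cx3cr1 without the variance trend (limma adjusted p = 0.00994). Ccl25, which was not called, changed sign with quantile normalization (0.26). The cause of these changes was not tested. Leaving out each library, differences ran from -2.88 to -2.80 for Cxcl12, 0.04 to 0.09 for Cxcr4, 0.63 to 0.73 for Ackr3, and -0.11 to 0.03 for Ccl2, and the bound for Ccl5 from 25.2-fold to 29.9-fold. Same-numbered libraries did not deviate together (correlations -0.023 to 0.034). The labels do not say whether the numbers pair the libraries. These correlations cannot decide it, since pairing need not leave a shared deviation. With a replicate block 4562 genes were higher and 4379 lower, beside 4528 and 4352. The number of reads limits what can be said of receptors and ligands with fewer than about 50 reads per library.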
